A study of Rattus norvegicus with 33 samples.

Results

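The cytosolic ribosomal proteins are the proteins that, together with ribosomal RNA, form the large and small subunits of the ribosomes of the cytosol. Their genes were chosen by symbol alone, as rows of the expression table with a single symbol that begins with Rpl or Rps and goes on with a number and at most an a, x or y, together with the P stalk genes (Rplp0 to Rplp2) and Rpsa. Of 14506 genes 68 were members, 42 of the large and 26 of the small subunit, and where a member had several rows the row with the highest mean over the 33 arrays was used.

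Soleus RNA of 33 female Wistar rats was measured on Affymetrix rat arrays in 11 groups of 3, with a separate array for every animal. In SCI rats the spinal cord was cut through completely when they were 9 weeks old. After a further 14 weeks they had surgery as for an implanted stimulator, without the device, and a left gastrocnemius tenotomy, and their muscle was taken 21 days after that surgery. SCI-ES rats had the same operations with the stimulator in place, and electrical stimulation (ES) of the hindlimb was begun 16 weeks after transection and given for 1, 3 or 7 days. Sham-SCI rats had a laminectomy only, at 9 weeks of age, with neither tenotomy nor stimulator surgery, so SCI versus Sham-SCI also holds the effect of those operations. In a separate experiment intact rats of 22 to 23 weeks of age had gastrocnemius ablation (GA), in which the distal insertion of the gastrocnemius is cut so that the soleus is overloaded, and were studied after 1, 3 and 7 days. Sham-GA rats had the same surgery without the cut and were studied on the same days. The same 3 SCI arrays served as the control for all ES groups and as the injured group against Sham-SCI. Muscle genes were bright on every array, with mean log2 values of 14.07 for Acta1, the actin of skeletal muscle, and 13.15 for Myh7 and 12.52 for Tnnt1, which are typical of slow fibers.

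A muscle fiber that grows adds ribosomes, which requires ribosomal RNA, ribosomal proteins and many assembly factors in the nucleolus in matched amounts. Ribosomal protein mRNAs belong to a class that begins with an uninterrupted run of pyrimidines at the cap, known as a TOP sequence, through which mTOR and the RNA binding protein Larp1 control how much of the mRNA is translated. Much of the control of these proteins is therefore on translation and stability, whereas the arrays measured the amount of mRNA. In whole muscle, fewer cells of a type and less RNA per cell cannot be told apart.

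The pyrimidine run that the class shares was looked for in the sequence around each gene's start in the RefSeq promoter table (GRCr8), from 50 bases before to 50 bases after the first start listed for the gene. A run was counted where a C was followed by at least 7 further bases that were each C or T, that is 8 or more in all, on the sense strand. Of the 68 members 58 had a sequence in the table, and 49 of these (84.5%) held such a run, against 28.8% of all 27457 genes with a sequence. On the opposite strand it was found in 12 of the 58 members (20.7%) and in 29.4% of all genes. The longest run in each member that had one was 8 to 22 bases. The windows of 30 bases below are those of 6 members to which the results turn, written 5′ to 3′, with the run in capitals. Rpl3 had no run of that length and is shown in lower case around its start.
Rps12: tgcggccaccagcggCCTTTTCCCCTgccg
Rps3: gcgagccaCTTCCTTTCCTTTCagcggcgc
Rps27: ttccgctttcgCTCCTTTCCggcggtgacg
Rps21: gaacgagccaCTTCCTTTCTgtgttctccg
Rpl23: cttgtactaaCTTCCTTTCTgactctttcc
Rpl3: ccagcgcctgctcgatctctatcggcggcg
They lie at chr1:23500095-23500124 on the plus strand (Rps12), chr1:163195776-163195805 on the minus strand (Rps3), chr2:177964590-177964619 on the minus strand (Rps27), chr3:187724023-187724052 on the plus strand (Rps21), chr10:83272175-83272204 on the minus strand (Rpl23) and chr7:113507976-113508005 on the minus strand (Rpl3). The Rps12 run began 36 bases into the annotated transcript and the Rps3 run 21 bases before its annotated start, so the letters describe the window and not a mapped cap site.

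None of the 68 members passed the test in any of the 13 comparisons that were tested, at any fold change. The test was limma's moderated test over all genes, and a gene passed at an adjusted p under 0.05 after Benjamini-Hochberg adjustment over all 14451 to 14456 genes tested. For all genes the share that passed was 0.47% for SCI versus Sham-SCI, 0.0554% for GA versus Sham-GA at 1 day, 0.0554% for the ES effect minus the GA effect at 1 day, and 0% in the 10 other comparisons. The members were also within a narrow range. The 95% interval of the difference lay inside a change of 1.5 fold in either direction for 65 of 68 members for SCI versus Sham-SCI, and for 57 to 65 in the ES and GA comparisons at single days. On the log2 scale the median difference of the members lay between 0.01 and 0.17 in the 7 comparisons of a treated group with its control, which is plotted gene by gene.

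**Figure D1:**
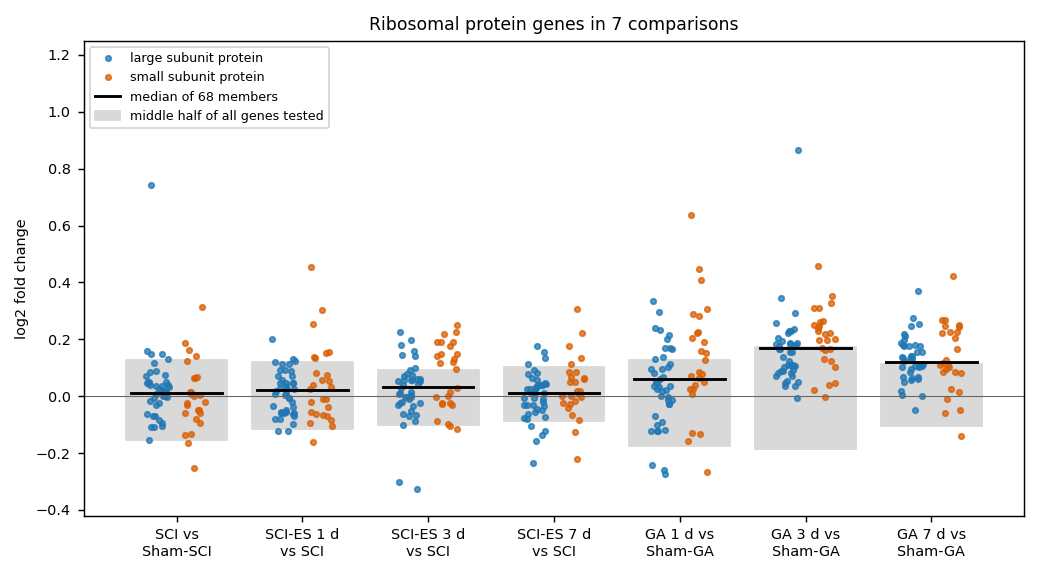
Log2 fold change (vertical axis) of each of 68 ribosomal protein genes in 7 comparisons, with large subunit genes in blue, small subunit genes in orange, the members' median as a line and the middle 50% of all genes tested as a grey band. The cloud is centred near 0 for SCI and for ES and lies above 0 for GA at 3 and 7 days (66 and 63 of 68 genes), and the highest blue point in SCI and in GA at 3 days is Rpl3.

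The members gave strong signals. Mean log2 values ran from 5.59 (Rps27) to 13.63 (Rps29), followed by Rps20 at 13.34 and Rps4x at 13.26, although probes differ in brightness and these values do not rank the mRNAs. For 62 of 68 members the mean was above that of 90% of the genes tested. The 6 exceptions were Rps27, Rpl15 (6.56), Rpl24 (9.24), Rpl23 (9.44), Rps24 (9.45) and Rps13 (9.83), and Rps27 lay below the median of every array (6.45 to 6.54). The pooled standard deviation between animals of a group was 0.139 for the median member, against 0.188 for the median of all genes. Over all 33 arrays the SD was largest for Rpl3 (0.573), Rps12 (0.426) and Rps3 (0.351), and smallest for Rpl23a (0.087), Rplp1 (0.089) and Rpl28 (0.101). Rpl3 lies close to the site where peptide bonds are formed, Rps3 lines the channel through which mRNA enters, and Rps12 is part of the beak of the small subunit.

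The members varied together across the 33 arrays. The level of each member, as a deviation from its own mean over 33 arrays, was summarized by the median over members, and across the 33 arrays the correlation of a single member with that median was 0.81 for the median member and above 0.5 for 64 of 68. The lowest was that of Rplp1 (0.16), a stalk protein, and the highest was 0.95. The 33 arrays hold 2 experiments and 11 groups, and each member is part of the median, so this is a description. It mixes differences between experiments and groups with those between animals of a group. The genes outside the list whose pattern was most like the median were Tuba1b (0.96), Ppia (0.95), Pea15 (0.94), Arpc4 (0.94) and Tubb5 (0.94). Since members varied together across arrays, their counts below are not 68 independent observations.

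Array by array, the median deviation was -0.21, -0.01 and -0.09 on the 3 SCI arrays, against -0.01, -0.22 and -0.10 on the 3 Sham-SCI arrays. The groups overlapped. It was 0.04, -0.21 and -0.11 after 1 day of ES, -0.09, 0.02 and -0.17 after 3 days, and -0.09, -0.004 and -0.20 after 7 days. Each ES group overlapped with SCI, with 1 array of each (replicate 1 at 1 day, replicate 2 at 3 and 7 days) above the highest SCI array. In the overload experiment it was 0.17, 0.04 and 0.11 for GA at 1 day against 0.13, -0.02 and -0.01 for Sham-GA. At 3 days it was 0.12, 0.01 and 0.29 for GA, against -0.15, 0.17 and -0.10 for Sham-GA. At 7 days it was 0.12, 0.27 and 0.15 for GA, against 0.02, 0.08 and 0.09 for Sham-GA, and only at 7 days did all 3 GA arrays lie above all 3 sham arrays. Sham-GA 3 days replicate 2 and Sham-GA 1 day replicate 1 stood apart from the other sham arrays of their day.

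The same 2 sham arrays were also high in markers of macrophages and of cell division, and single arrays of the ES experiment stood out in macrophage markers. The summed linear signal of 16 measured macrophage markers (of 19 listed) was 26106 in Sham-GA 3 days replicate 2, against 7642.5 and 11634 in the other 2 Sham-GA arrays of that day, and lay between 20038 and 29499 in GA at 3 days. That of 18 measured cell division genes (of 20 listed) was 6194 in the same array, against 1760 and 2307 in the other 2, and lay between 3772 and 9573 in GA at 3 days. Sham-GA 1 day replicate 1 had a macrophage sum of 26153, against 9179 and 9828 in the other 2, with 15946 to 24615 in GA at 1 day. Its cell division sum was 4343, against 1872 and 2139 in the other 2, with 1912 to 2619 in GA at 1 day. In the ES experiment the macrophage sum was 17445 in SCI-ES 3 days replicate 2, against 3833 and 7565 in the other 2 of that group, 15384 in SCI-ES 7 days replicate 2, against 5372 and 8888, and 12903 in Sham-SCI replicate 1, against 2681 and 5102. These 3 arrays also had the highest member median of their group. The highest macrophage sum and the highest member median were likewise on 1 array in SCI-ES 1 day (replicate 1, 8725 and 0.04) and GA 1 day (replicate 1, 24615 and 0.17). The same held in GA 3 days (replicate 3, 29499 and 0.29) and Sham-GA 7 days (replicate 3, 24141 and 0.09). In SCI the highest macrophage sum was in replicate 3 (10659) and the highest member median in replicate 2 (-0.01). At 7 days of GA they were likewise on different arrays, replicate 3 (22106) and replicate 2 (0.27). No value of the table lies below 2.1 on the log2 scale, so no marker is at 0. The part of these cells in the members' values was not tested.

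**Figure D2:**
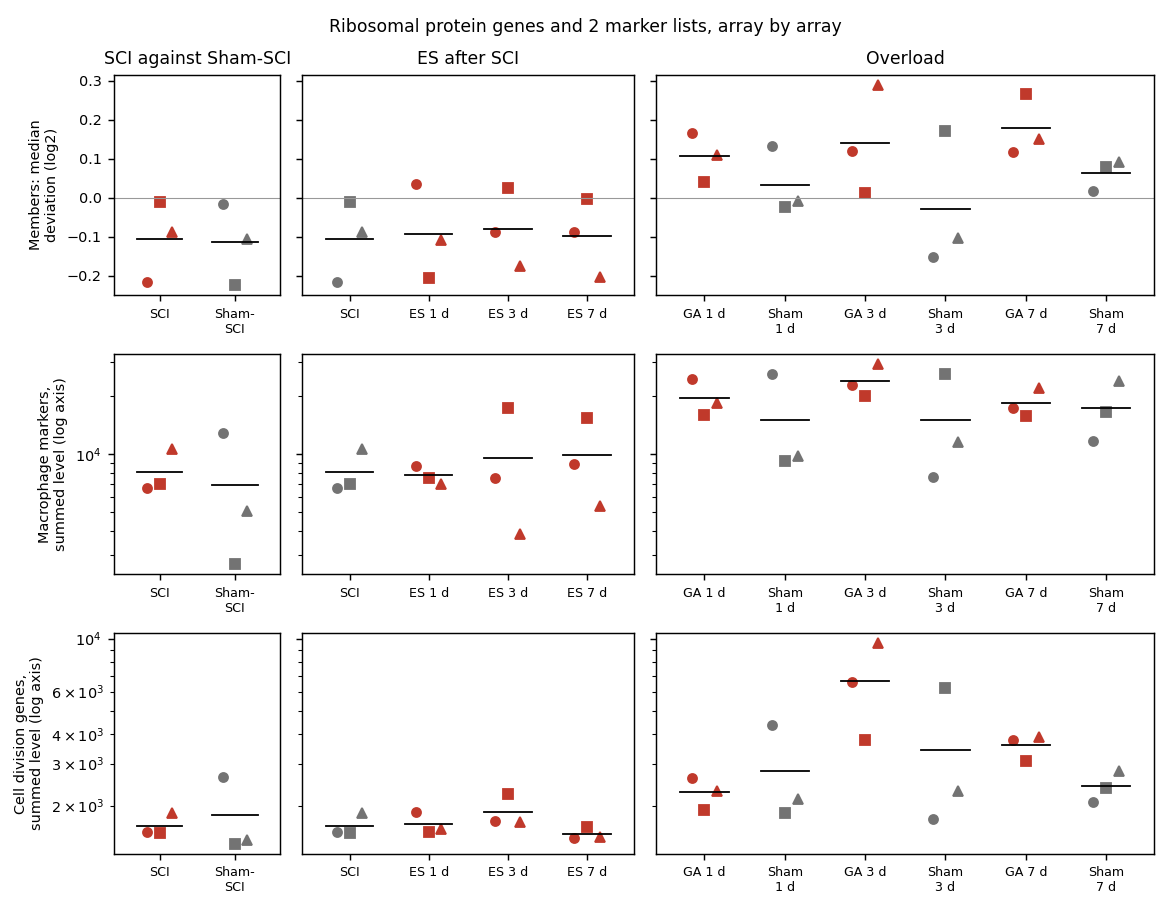
Each point is 1 array, with circles, squares and triangles for replicates 1, 2 and 3, red for the treated or injured group, grey for its control (SCI is red against Sham-SCI and grey as the control of ES) and a line at the mean of 3. The upper row is the median deviation of the 68 members (log2), the middle and lower rows the summed signal of macrophage markers and cell division genes on log axes, and the square of Sham-GA at 3 days (0.17, 26106 and 6194) lies high in all 3 rows.

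SCI versus Sham-SCI asked how the soleus paralyzed by the injury differs from that of sham-operated rats. Of 68 members 41 had a difference above 0 and 27 below, with a median of 0.01 on the log2 scale against -0.02 for all genes, and with each array centred on its median the members' median was -0.07 (13 above 0 and 55 below). It was -0.043 without SCI replicate 2 and 0.069 without SCI replicate 1. Large subunit genes had a median of 0.02 and small subunit genes -0.01. Rpl3 was the member with the highest difference. Its log2 values were 10.91, 11.49 and 11.30 in SCI, against 11.06, 9.93 and 10.48 in Sham-SCI, a difference of 0.74 ± 0.33 (SE) with an adjusted p of 0.33 by limma. Sham-SCI replicate 1 lay above SCI replicate 1, so the groups overlapped.

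At the other end Rps3 had values of 11.08, 11.07 and 11.39 in SCI, against 11.55, 11.30 and 11.44 in Sham-SCI, a difference of -0.25 ± 0.17. Rps12 was 0.31 ± 0.28 and Rps24, which is among the proteins needed early in the assembly of the small subunit, 0.19. Rps26, at the exit of the mRNA channel, was -0.16 and Rpl14 -0.15. By the unadjusted p under 0.05, only Rpl3 of the 68 members was selected (1.47%), against 14.6% of all genes. The 3 SCI arrays were all above the 3 Sham-SCI arrays for Rpl37a and Rps18 (2.94% of members), against 9.14% of all genes. In these same arrays all 14 fibroblast markers were above 0, with a median of 1.41 and a summed signal of 33613 to 44417 in SCI and 16832 to 20743 in Sham-SCI. Their part in the members' values was not tested.

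ES in SCI rats asked how returning contraction acts on the paralyzed soleus. The SCI controls carried no stimulator, and their muscle was taken 21 days after the tenotomy surgery. ES versus SCI therefore also holds the implanted device and, at 1 and 3 days of ES, a shorter time since that surgery. These cannot be told apart from stimulation. After 1 day of ES, 38 of 68 members were above 0, with a median of 0.02 against -0.004 for all genes, and the median was -0.04 when the arrays were quantile normalized again. With 1 array left out it ran from -0.044 (SCI-ES 1 day replicate 1) to 0.077 (SCI-ES 1 day replicate 2). Rps21, a small protein of the small subunit, was highest. Its log2 values were 10.56, 9.83 and 10.16 after 1 day of ES, against 9.59, 9.88 and 9.72 in SCI, a difference of 0.45 ± 0.17 (SE; limma adjusted p 0.64). SCI-ES 1 day replicate 2 lay within the SCI values and the other 2 above them. Rps26 followed with 11.90, 11.46 and 11.58 after 1 day of ES, against 11.23, 11.48 and 11.33 in SCI, a difference of 0.30. Rps12 was at 0.25, and Rps2, at -0.16, was lowest, with Rplp1 and Rpl36a at -0.12. By the unadjusted p, 2 members were selected (2.94%), Rps21 and Rps26, against 7.28% of all genes. Endothelial markers were below 0 in 11 of 11 cases (median -0.39) and fibroblast markers in 12 of 14 (-0.50). Neutrophil markers were above 0 in 9 of 10 (0.40), and macrophage markers split 9 above to 7 below. Their part in the members' values was not tested.

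After 3 days of ES, 42 of 68 members were above 0 with a median of 0.03, which was -0.019 without SCI replicate 1 and 0.088 without SCI replicate 2. Rps28, Rpl39 and Rps27 were highest at 0.25, 0.23 and 0.23. Rpl36a, which lies where the spent tRNA leaves the large subunit, was lowest at -0.32 ± 0.13, with 11.76, 11.94 and 11.57 after 3 days of ES, against 11.93, 12.11 and 12.20 in SCI, so that replicate 2 after ES and replicate 1 of SCI overlapped. Rpl15 (-0.30) and Rps4x (-0.11) came next. By the unadjusted p 1 member was selected (Rpl36a), against 3.07% of all genes. Endothelial markers were above 0 in 11 of 11 cases (median 0.47) and cell division genes in 16 of 18 (0.30). Macrophage markers split 9 above to 7 below. Their part in the members' values was not tested.

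After 7 days of ES, 39 of 68 were above 0 with a median of 0.01. Without SCI replicate 1 it was -0.046 (17 above 0), and without SCI-ES 7 days replicate 3 0.080 (49 above 0). Rps28 was again highest, at 0.31, then Rps14 (0.22) and Rpl9 (0.18). Rpl15 was lowest at -0.24 and Rpl36a was at -0.16. Rps13 stood between them at -0.22 ± 0.09, with 9.60, 9.68 and 9.65 after 7 days of ES, against 9.78, 9.91 and 9.90 in SCI. It was the only member selected by the unadjusted p, against 2.84% of all genes. Macrophage markers were above 0 in 13 of 16 cases after 7 days of ES (median 0.20) and cell division genes below 0 in 15 of 18 (-0.09). All 3 ES comparisons share the SCI arrays, so a low or high value of a member in SCI enters each of them.

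Between 7 days and 1 day of ES, 33 of 68 members were above 0 and 35 below, with a median of -0.01 against 0.02 for all genes, and of 0.06 after a second quantile normalization. It ran from -0.072 (without SCI-ES 1 day replicate 2) to 0.046 (without SCI-ES 1 day replicate 1). Rps21 had the lowest difference (-0.37), with 9.82, 9.98 and 9.65 at 7 days, against 10.56, 9.83 and 10.16 at 1 day, and it was the single member selected by the unadjusted p (1.47%), against 12.1% of all genes. The adjusted p was 0.40 by limma. The rats with 7 days of ES were also taken later after surgery than those with 1 day.

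**Figure D3:**
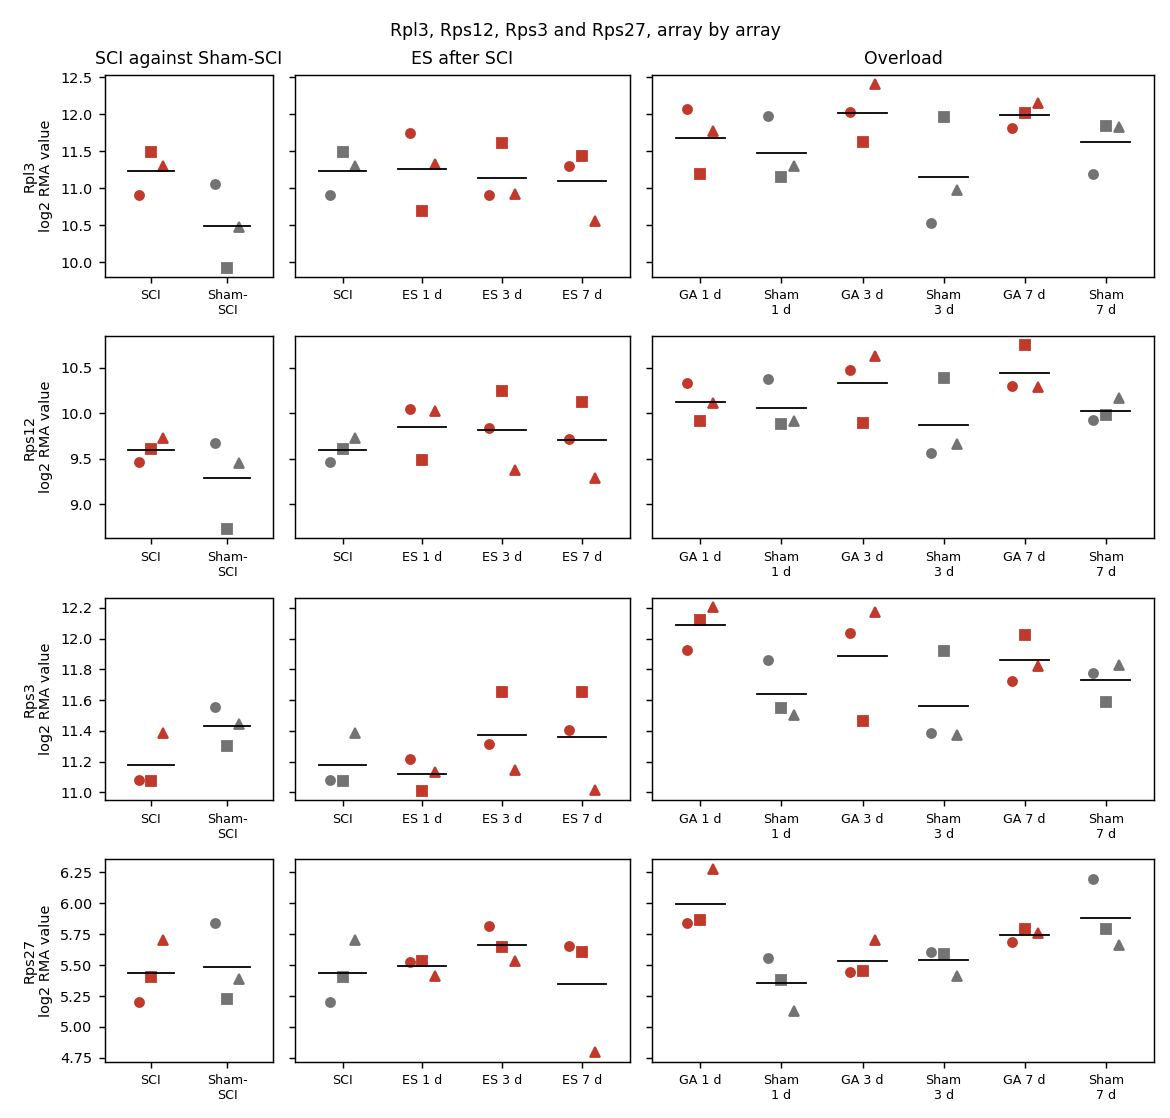
Log2 RMA values of Rpl3, Rps12, Rps3 and Rps27 (rows, vertical axes differ) on every array, with circles, squares and triangles for replicates 1, 2 and 3 and a line at the mean of each group. The group means of Rpl3 and Rps12 were highest in GA at 3 and 7 days, single arrays of GA and Sham-GA at 1 day and the square of Sham-GA at 3 days reached the same range, and Rps27 lay highest in GA at 1 day.

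Overload was studied with a sham group at each day. At 1 day of GA, 49 of 68 members were above 0, 27 of 42 of the large and 22 of 26 of the small subunit, with a median of 0.06 against -0.01 for all genes. The median was 0.12 after a second quantile normalization, and with 1 array left out it ran from 0.015 (Sham-GA 1 day replicate 2) to 0.13 (Sham-GA 1 day replicate 1). Rps27, a zinc finger protein of the small subunit, was highest. Its log2 values were 5.84, 5.87 and 6.28 in GA, against 5.56, 5.38 and 5.13 in Sham-GA, so the groups did not overlap. The difference was 0.64 ± 0.15 (SE), or 1.56 fold, with an adjusted p of 0.12 by limma, and it is measured by a single row of dim signal. Without Sham-GA 1 day replicate 1 it was 0.74 with an adjusted p of 0.049, when 1.36% of all genes passed.

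Rps3 came next at 1 day of GA with 11.93, 12.12 and 12.21, against 11.86, 11.55 and 11.50 in Sham-GA, a difference of 0.45 ± 0.18 (adjusted p 0.31), followed by Rps18 at 0.41. Members at the low end were Rpl21 and Rps7 (both -0.27) and Rpl10 (-0.26), which joins the large subunit late in its maturation. Rps7 had 11.80, 11.26 and 11.43 in GA, against 11.96, 11.58 and 11.76 in Sham-GA, and these overlapped. Of the stalk proteins, which draw elongation factors to the ribosome, Rplp2 was at -0.24, Rplp1 at -0.07 and Rplp0 at 0.17. Rplp2 had 12.77, 12.27 and 12.51 in GA, against 12.83, 12.69 and 12.76 in Sham-GA.

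The unadjusted p selected 8 members at 1 day of GA (11.8%), against 13.7% of all genes. They were Rps27, Rps3, Rps18, Rpl41 and Rpl7 above 0 and Rpl21, Rpl10 and Rplp2 below. All 3 GA arrays lay above all 3 Sham-GA arrays for 17 members (25%), against 5.56% of all genes. They include Rpsa, which also binds laminin, with 10.67, 10.58 and 10.63 in GA and 10.42, 10.29 and 10.32 in Sham-GA, and Rplp0 with 12.29, 12.11 and 12.22 in GA and 12.04, 12.05 and 12.01 in Sham-GA. For Rpl10, Rpl21 and Rps4x all GA arrays lay below the sham arrays (3 of 68), as they did for 11.1% of all genes. Neutrophil markers were above 0 in 10 of 10 cases at 1 day of GA, with a median of 0.66, and macrophage markers in 13 of 16, with a median of 0.60; their part in the members' values was not tested.

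At 3 days of GA the members lay above sham nearly as a block. The difference was above 0 for 66 of 68, with a median of 0.17 (1.12 fold) against -0.03 for all genes, of which 44.8% were above 0. The small subunit had a median of 0.21 and the large subunit 0.15. Centring each array on its median moved the median of all genes by -0.10, to -0.14, and that of the members to 0.07 (51 above 0 and 17 below). The 2 members below 0 were Rpl35 (-0.007) and Rps27 (-0.004), and the next lowest was Rps16 at 0.02. After a second quantile normalization all 68 were above 0, with a median of 0.20.

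Rpl3 had the highest difference at 3 days of GA. Its log2 values were 12.03, 11.63 and 12.41 in GA, against 10.53, 11.96 and 10.97 in Sham-GA, a difference of 0.87 ± 0.34 (SE), or 1.82 fold, with an adjusted p of 0.29 by limma. Sham-GA replicate 2 lay above GA replicate 2. The next were Rps12 at 0.46 ± 0.23, with 10.47, 9.89 and 10.62 in GA, against 9.57, 10.39 and 9.66 in Sham-GA, and Rps24 at 0.35. The overlap again came from Sham-GA replicate 2 and GA replicate 2. Rpl23, which binds Mdm2 when ribosome assembly is disturbed, did not overlap, with 9.77, 9.63 and 9.78 in GA, against 9.32, 9.54 and 9.29 in Sham-GA (0.35 ± 0.11, adjusted p 0.29).

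The unadjusted p selected 4 members, all higher in GA at 3 days (Rpl23, Rps3a, Rpl3 and Rps24, 5.88%), against 16.5% of all genes in either direction and 8.3% of all genes higher. The groups did not overlap, with GA higher, for 6 members (8.82%), against 5.86% of all genes. Leaving out 1 array moved the members' median at 3 days of GA to between 0.097 (57 of 68 above 0), without GA 3 days replicate 3, and 0.27, and it was 0.11 without Sham-GA 3 days replicate 1, where Rpl3 was at 0.55. Without Sham-GA 3 days replicate 2, the median of the members was 0.27 and 5 members passed, all higher in GA at 3 days: Rpl3 (1.27, adjusted p 0.027), Rps12 (0.72, 0.049), Rpl23 (0.42, 0.035), Rps3a (0.41, 0.048) and Rps20 (0.40, 0.047). Of these Rpl3 and Rps12 also reached 1.5 fold. That is 7.35% of the members, while 10.7% of all genes passed in the same fit.

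Markers of macrophages, fibroblasts and cell division were high in the same comparison. Other lists went the other way, with neutrophil markers below 0 in 8 of 10 cases (median -0.26) and adipocyte markers in 7 of 8 (-0.17). At 3 days of GA all 16 macrophage markers were above 0 with a median of 0.85, as were all 18 cell division genes with a median of 1.07 and 13 of 14 fibroblast markers with a median of 1.05, and none of these genes passed. The muscle fiber markers were below 0 in 17 of 22 cases, with a median of -0.26. The part of these in the members' values was not tested.

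At 7 days of GA the members were above 0 in 63 of 68 cases, with a median of 0.12 (1.09 fold) against 0.00 for all genes, and after centring of the arrays in 58 of 68. Large and small subunit genes had medians of 0.13 and 0.11. Rps12 was highest with 10.30, 10.75 and 10.28 in GA, against 9.92, 9.98 and 10.17 in Sham-GA, which did not overlap (0.42 ± 0.23, adjusted p 0.999). Rpl3 had 11.81, 12.02 and 12.15 in GA, against 11.20, 11.83 and 11.83 in Sham-GA (0.37), and Rpl6 was at 0.27. The lowest were Rps27 (-0.14), Rps28 (-0.06) and Rpl41 (-0.05). Rplp2 had 12.89, 12.91 and 12.88 in GA, against 12.57, 12.79 and 12.69 in Sham-GA, and was among 19 members (27.9%) for which every GA array lay above every sham array, against 4.86% of all genes. Rpl9 and Rps23, 2 members, were selected by the unadjusted p, against 2.63% of all genes. At this day cell division genes had a median of 0.56, with summed signals of 3089 to 3895 in GA and 2069 to 2790 in Sham-GA, and the macrophage sums overlapped, at 15893 to 22106 in GA and 11696 to 24141 in Sham-GA.

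**Figure D4:**
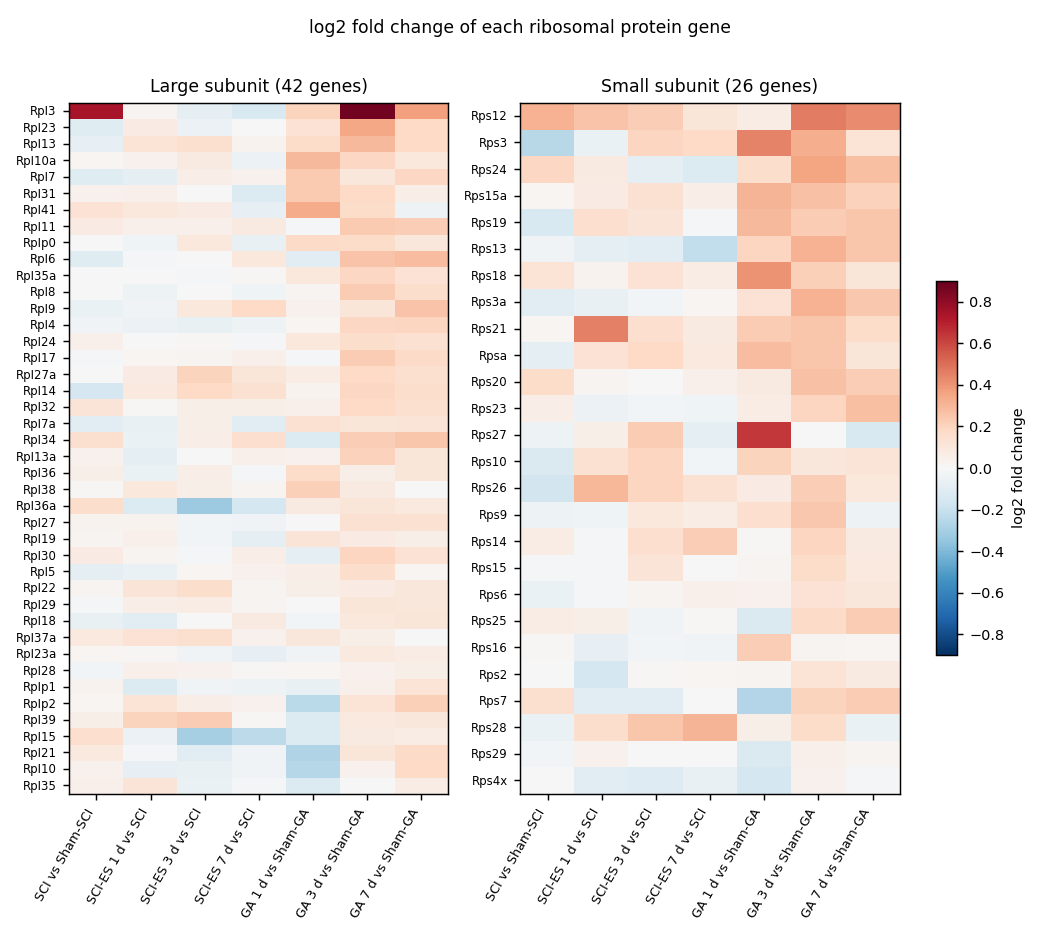
Log2 fold change (colour scale, red above and blue below 0) of the 42 large subunit genes and the 26 small subunit genes in 7 comparisons (columns), ordered from the highest to the lowest mean GA effect. The columns for GA at 3 and 7 days are red for 66 and 63 of 68 genes, and the strongest cells are Rpl3 in SCI (0.74) and in GA at 3 days (0.87).

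Averaged over 1, 3 and 7 days, the GA effect was above 0 in 64 of 68 members, 40 of 42 large and 24 of 26 small subunit genes, with a median of 0.12 against -0.01 for all genes. The highest were Rpl3 (0.48 ± 0.19), Rps12 (0.31 ± 0.13) and Rps3 (0.30 ± 0.11). The lowest were Rps4x (-0.04), Rpl35 (-0.02) and Rps29 (-0.02), and the lowest adjusted p was 0.17. Here the unadjusted p selected 19 members, all above 0 (27.9%), against 19.3% of all genes in either direction and 7.96% of all genes above 0. Besides Rpl3, Rps12 and Rps3 they include Rpl23 (0.22), Rps3a (0.23), Rps24 (0.26) and Rps15a (0.26).

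Without Sham-GA 3 days replicate 2, 13 members passed for the mean GA effect (19.1%), all above 0, while 10.4% of all genes passed. They were Rpl3 (0.61), Rps12 (0.40), Rps3 (0.36), Rps19, Rps24, Rps18, Rps15a, Rps21, Rps3a, Rpl23, Rps20, Rps23 and Rpl41, and only Rpl3 reached 1.5 fold. Rps19 and Rps24 are among the genes mutated in Diamond-Blackfan anemia in humans. Without Sham-GA 1 day replicate 1, 2 members passed (Rpl23 and Rps3a, 2.94%), while 6.46% of all genes passed.

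The GA effect at 7 days minus that at 1 day had a median of 0.07 over the members, with 46 above 0, and of -0.001 with centred arrays and -0.01 after a second quantile normalization, and it was 0.011 without Sham-GA 1 day replicate 1. Rps27 was lowest (-0.78 ± 0.22) with Rpl41 (-0.38) and Rps3 (-0.32) next. Rps7 (0.49), Rplp2 (0.46) and Rpl21 (0.45) were highest, and at 1 day of GA these 3 had differences of -0.27, -0.24 and -0.27. The unadjusted p selected 5 members (7.35%), against 8.26% of all genes, and the lowest adjusted p was 0.40.

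The ES effect minus the GA effect was compared on each day, with the SCI arrays and each day's Sham-GA arrays as controls. The SCI rats had themselves had a tenotomy and were of a single time after surgery, whereas Sham-GA rats had no tenotomy and were matched by day. ES also acted on muscle paralyzed by transection, and GA on muscle of intact rats in a separate experiment. These differences cannot be told apart from that between ES and GA. At 1 day 27 of 68 members were above 0 and 41 below, with a median of -0.06, which was -0.19 after a second quantile normalization, -0.12 without SCI-ES 1 day replicate 1 and 0.0084 without GA 1 day replicate 1. Rplp2 was highest (0.37 ± 0.14), and Rps27 (-0.58 ± 0.27) and Rps3 (-0.51) were lowest, and 2 members were selected by the unadjusted p, against 13% of all genes. At 3 days 9 of 68 were above 0, with a median of -0.11 against 0.01 for all genes, and with centred arrays 27 were above 0 with a median of -0.024. The median was -0.039 without GA 3 days replicate 3 and -0.23 without Sham-GA 3 days replicate 2. Rpl3 was lowest (-0.95 ± 0.50), then Rps24 (-0.44) and Rpl36a (-0.43), and Rps27 was highest (0.23). Selected by the unadjusted p were 3 members, against 9.47% of all genes. At 7 days 9 of 68 were above 0, with a median of -0.13 (-0.062 without SCI replicate 2), and Rpl3 (-0.51), Rps13 (-0.47) and Rps24 (-0.39) were lowest with Rps28 (0.36) highest. The unadjusted p selected 1 member, against 3.14% of all genes, and the lowest adjusted p of a member over the 3 days was 0.24.

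Rps6, the member phosphorylated by the S6 kinases downstream of mTOR, overlapped with its controls in SCI and at each day of GA. Its log2 values were 12.94, 12.86 and 12.78 in GA at 1 day, against 12.93, 12.76 and 12.77 in Sham-GA, and 12.92, 12.76 and 12.90 in GA at 3 days, against 12.67, 12.88 and 12.65 in Sham-GA. In SCI they were 12.32, 12.56 and 12.49, against 12.67, 12.38 and 12.50 in Sham-SCI. At 7 days of GA they were 12.73, 12.79 and 12.89, against 12.61, 12.72 and 12.78 in Sham-GA. The difference at 3 days of GA was 0.13 ± 0.10, against a median of 0.17 over the members.

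Paralogs and fusion genes were followed as far as they had a row. Of 13 listed 4 were measured, Rpl22l1, Rps4y2, Fau and Rack1, and none passed. Rpl36al1 and Rpl37l1, which are outside the rule and the list, also had rows. Their differences at 1, 3 and 7 days of GA were 0.09, 0.22 and 0.14 for Rpl36al1 and 0.12, 0.13 and 0.04 for Rpl37l1, a gene that RefSeq also lists under the synonym Rpl37, and neither passed. Rpl3l, the paralog that replaces Rpl3 in striated muscle of mice, was not analysed here. Rps4y2, a paralog of Rps4x, had 7.49, 7.32 and 7.81 in GA at 3 days, against 6.82, 7.2 and 6.64 in Sham-GA, without overlap (0.65 ± 0.15, adjusted p 0.29), while it differed by 0.05 at 7 days. Rpl22l1, a paralog of Rpl22, was at 0.32, 0.485 and 0.33 at 1, 3 and 7 days of GA. At 1 day it had 7.63, 7.60 and 7.60 in GA, against 7.58, 7.13 and 7.17 in Sham-GA, without overlap (adjusted p 0.51). Fau, which encodes Rps30 fused to a ubiquitin-like protein, and Rack1, a scaffold on the small subunit, were between -0.10 and 0.17 in the SCI, ES and GA comparisons with a control.

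Other lists of ribosome production and translation had medians that differed from those of the members, and the difference between lists was not tested. The 68 mitochondrial ribosomal protein genes, which build the ribosomes inside mitochondria, were below 0 in 67 cases for SCI versus Sham-SCI, with a median of -0.26, in 66 cases for GA at 1 day (-0.31) and in 65 cases for GA at 3 days (-0.26), and split 35 above to 33 below at 7 days. After 1 day of ES 63 of them were above 0, with a median of 0.23. Only Mrps18b passed, in SCI versus Sham-SCI (-0.79 ± 0.13, limma adjusted p 0.024). These directions were the same with centred arrays and after a second quantile normalization, apart from GA at 7 days, where the median was -0.04 and -0.02.

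Of 84 nucleolar and assembly factors 72 were measured. They were above 0 in 65 cases after 1 day of ES, with a median of 0.21, but below 0 in 60 after 3 days of ES (-0.11) and in 51 after 7 days (-0.04). They were above 0 in 57 at 3 days of GA (0.13) and in 58 at 7 days of GA (0.13), and below 0 in 59 for SCI versus Sham-SCI (-0.14). At 3 days of GA the median was 0.032 (40 above 0) with centred arrays and 0.049 after a second quantile normalization. The single factor that passed was Znhit6, which acts in the assembly of small nucleolar ribonucleoproteins, at -0.48 ± 0.09 in SCI versus Sham-SCI (adjusted p 0.043), and neither with centred arrays nor after a second quantile normalization did a factor pass. Translation factors (46 of 53 measured) had medians of -0.11 for SCI versus Sham-SCI, 0.14 after 1 day of ES and 0.14 at 7 days of GA, and none passed. After 3 and 7 days of ES their medians were -0.08 and -0.01. At 3 days of GA theirs was 0.08, and -0.02 with centred arrays. Of 25 regulators of ribosome production 18 were measured and none passed. Myc, which drives transcription of ribosomal genes, was at 0.97 ± 0.38 at 1 day, 0.62 at 3 days and 0.32 at 7 days of GA, with an adjusted p of 0.29 at 1 day.

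**Figure D5:**
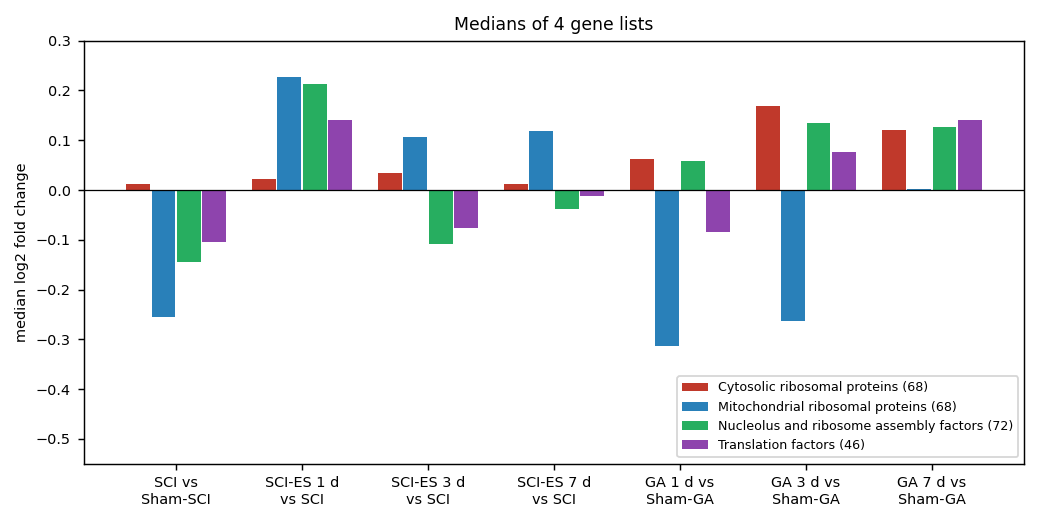
Median log2 fold change (bars from 0) of the 68 cytosolic ribosomal protein genes and of 3 other lists in 7 comparisons, with the number of genes measured in brackets. The cytosolic set stays between 0.01 and 0.17, whereas the mitochondrial set runs from -0.31 at 1 day of GA to 0.23 after 1 day of ES.

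Ribosomal protein genes have many near-identical processed copies in the genome, and 53 of the 68 members had more than 1 row under their symbol, 249 rows in all. Such rows can share signal, so they are not independent measurements. Rpl21 had 21 rows, whose differences at 3 days of GA lay between 0.05 and 0.14 and were all above 0. The rows of a member were mostly alike, with a median correlation over 33 arrays above 0.9 for 43 of 53 members. The rows differed most in level for Rpl41 (3 rows, means 5.79 to 12.58), Rpl4 (2 rows, 5.96 and 12.23) and Rps3 (2 rows, 5.98 and 11.57). The 2 rows of Rps3 correlated at 0.55 and gave 0.22 and 0.33 at 3 days of GA. Counted by rows instead of genes, 243 of 249 rows were above 0 at 3 days of GA, 235 at 7 days and 177 at 1 day, and 146 for SCI versus Sham-SCI. Rpl3 has 1 row, so its difference rests on that row alone.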

How the data were processed

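The deposited values are log2 expression values that the authors made with the oligo package (RMA: background subtraction, quantile normalization and median polish), with 1 row per transcript cluster; tool versions are not given in the sources used here. Of 29214 rows 15310 carry 1 gene symbol in the platform's annotation, 323 several and 13581 none, and only the first kind was used. The annotation is that of a rat gene array, whereas the methods name an exon array. A design text gives 1, 2 and 7 days of ES and bilateral ablation, whereas the sample labels and methods give 1, 3 and 7 days, which were used. Contrasts were fitted with limma 3.58.1 (lmFit, eBayes) in R 4.3.3 over the 15 arrays of the ES experiment, the 18 of the GA experiment, or all 33 for ES minus GA, on genes with a mean of at least 3. P values were adjusted by Benjamini-Hochberg over all genes; called means an adjusted p under 0.05 and at least 1.5 fold, passed the same p at any fold. No p was computed over the members as a set. The fits were tested on simulated data with changes added to genes drawn from all genes. A 1.5 fold change passed in 28.8% of them for SCI versus Sham-SCI and 28.4% for GA at 3 days. It passed in 77.6% for the mean GA effect and 4.48% for ES minus GA at 1 day. At 1.25 fold the shares were 0%, 1.49%, 34.3% and 0%, so most changes of that size would be missed. Precision was limited by 3 animals per group.

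The members, gene lists, named genes and tests were chosen with earlier results of these data known. Named are the 3 highest and 3 lowest members of each comparison, the ends of level and spread, the stalk proteins, Rpl3, Rps6 and Rpsa, paralogs, members whose rows differ most, members in the study's supplementary tables, and members that passed under an alternative; Rps7, Rps13, Rps21, Rps26 and Rpl23 were given per array after their values were seen. Same-numbered arrays did not deviate together (correlation over 0.1 in 9 of 30 pairs in the ES experiment and 16 of 45 in the GA experiment), so replicate numbers were not used as pairs. Alternatives were other filters, scalings, row choices, array sets, priors, the methods' test, the replicate block and each array left out. Summaries used pandas 2.3.3 and numpy 2.4.6 (Python 3.11.15), and plots matplotlib 3.10.9.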

Additional observations from a re-analysis of the deposited data

How the results depend on the processing

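The count of members that passed was 0 under every filter, scaling, row choice, array set and prior tried, for all 13 comparisons. It was also 0 with the replicate block for all 13 comparisons. Leaving out 1 array gave 0 to 1 members called or passed for GA at 1 day, 0 to 2 called and 0 to 5 passed for GA at 3 days, and 0 to 1 called and 0 to 13 passed for the mean GA effect. The highest counts were those without Sham-GA 1 day replicate 1 and without Sham-GA 3 days replicate 2. With an unadjusted p and the 1.5 fold minimum, the methods' test across groups called 1 member, Rps27, for GA at 1 day. It called the same gene for the GA effect at 7 days minus 1 day. The share of all genes that it called is not given here, so these counts are not read as a result about the members. The test was run on the upper 50% of genes by variance, which held 13 members.

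Among those genes, which the filter keeps because they vary, the members' median was 0.14 after 3 days of ES, 0.20 at 1 day of GA and 0.24 for the mean GA effect. Each was further from 0 than with all 68. A second quantile normalization gave -0.19 for ES minus GA at 1 day. With 1 array left out the median for ES minus GA at 3 days ran from -0.23 to -0.039. The cause of these shifts was not tested.

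Reversals of named members were close to 0. At 3 days of GA, Rpl35 and Rps27 were at 0.062 and 0.069 after a second quantile normalization and at -0.027 to 0.019 and -0.088 to 0.040 with 1 array left out, and Rps16 was at -0.080 with centred arrays and -0.074 to 0.13 with 1 left out. Rps27 at 7 days of GA ran from -0.25 to 0.017, Rpl35 in the mean GA effect from -0.050 to 0.0020 (0.030 after a second quantile normalization) and Rps14 in ES minus GA at 7 days from -0.019 to 0.33. Rpl37a in ES minus GA at 3 days was at -0.0021 after a second quantile normalization. Of the other values of named members 1432 kept direction and side of the threshold, and 6 passed it, all without Sham-GA 1 day replicate 1 or Sham-GA 3 days replicate 2. With 3 animals per group and several comparisons on shared control arrays, small changes of single members could not be told from 0.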
